A study of Mus musculus with 9 samples.

Results

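The replication-dependent histone genes encode the linker histone H1 and the core histones H2A, H2B, H3 and H4 that package newly copied DNA, and they were read across cell classes, cell cycle states and strains of mouse bone marrow. The genes were taken by the prefixes Hist1h, Hist2h, Hist3h and Hist4h of their symbols, with a minimum of 50 unique molecular identifiers (UMIs, each standing for 1 captured RNA molecule) over the cells kept. Of 67 genes with these prefixes, 54 passed. They stand among the 31053 genes of the count matrix, of which 12935 had at least 50 UMIs. The 3 genes just inside the limit had 64 UMIs (Hist1h4c), 67 (Hist2h3c2) and 67 (Hist1h2bk), and the 3 just outside had 36 (Hist1h2ai), 35 (Hist1h4k) and 33 (Hist1h4f). Of the 13 genes left out, 4 had 0 UMIs.

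The study profiled femur bone marrow by droplet single-cell RNA sequencing (10x Genomics 3′ chemistry) in 9 untreated female mice aged 9 to 10 weeks. There were 3 mice of the inbred strain NZB, 3 of the inbred strain NZW and 3 of their first-generation cross NZBWF1, which is used as a model of systemic lupus erythematosus. No allele was engineered and no agent given in any group, and each mouse gave 1 library. NZBWF1 females generally fall ill at a later age than this.

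In a dividing cell, histone protein must be made in step with DNA, and the replication-dependent genes are transcribed mainly during DNA replication. Their mRNAs are unusual in that they normally end in a short stem-loop in place of a poly(A) tail, and the stem-loop binding protein Slbp brings them to processing and to the ribosome. Variant histones such as H2afz and H3f3b come from separate, polyadenylated genes and can be placed in chromatin outside replication. The chemistry used here starts from a poly(A) stretch, and whether the histone molecules counted had a tail or were primed inside the transcript was not measured. A gene's UMIs are for that reason its counts under this capture, not its amount of mRNA against another gene.

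In the GENCODE annotation of GRCm38, 42 of the 54 genes lay on chromosome 13 between positions 21715763 and 23764406, 9 on chromosome 3, 2 on chromosome 11 and 1, Hist4h4, on chromosome 6. For 50 genes the longest transcript had no intron. Letters of the histone stem-loop (a 6-base stem on either side of a 4-base loop) were found in at least 1 annotated transcript of 40 of the 54 genes. Within the last 200 bases they stood in 22 of 54 members (40.74%) and in 42 of 21951 protein-coding genes (0.1913%). The annotated transcript ran on for over 100 bases past the stem-loop in 22 members, and it ended within 30 bases of it in 7. The stem-loops of 5 genes on which the results turn are shown to let their letters be compared, from GENCODE transcripts, on GRCm38 and 5′ to 3′ on the gene's own strand, with the matched 16 letters in capitals.
Hist1h2ap (chr13:21833026-21833049, minus strand): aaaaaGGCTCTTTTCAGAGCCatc
Hist1h1e (chr13:23621777-23621802, minus strand): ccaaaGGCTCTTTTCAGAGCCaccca
Hist1h2ae (chr13:23570663-23570688, minus strand): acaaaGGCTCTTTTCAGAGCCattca
Hist1h4i (chr13:22040961-22040986, minus strand): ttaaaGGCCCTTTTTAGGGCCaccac
Hist2h2ac (chr3:96220413-96220438, minus strand): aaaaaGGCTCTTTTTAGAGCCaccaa
Hist1h1b, the second most counted gene, had no match in its 743-base model. The most A-rich 20 bases of the 2 most counted genes are shown because capture starts from runs of A, with those 20 bases in capitals.
Hist1h2ap (chr13:21833037-21833066, minus strand): acccgAAAAGAAAAAAAAAAAAGGCtcttt
Hist1h1b (chr13:21780469-21780498, minus strand): cgccaAGAAGAAGACAACGAAAAAAgctgg
The Hist1h2ap window held 16 A in 20, with a run of 12 directly before the stem-loop and the first letters of the stem-loop at its end, and the Hist1h1b window held 14 A with a longest run of 6. Whether capture began there was not tested.

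RefSeq promoters were matched for 49 members. In the 250 bases before the start, counting both strands, the letters CCAAT were found in 42 of 49 (85.71%) against 34.46% of 27025 promoters, TATAAA in 23 (46.94%) against 12.97%, and ATTTGCAT in 10 (20.41%) against 1.61%. The ATTTGCAT letters were in 5 H2A and 5 H2B genes and in no H1, H3 or H4 gene. Some H2A and H2B genes start back to back, so their windows overlap and the same site can count for both genes. The ATTTGCAT letters before Hist1h2bg, for example, also lie in the window of Hist1h2ae. CCAAT was in every H1, H2A and H2B promoter matched but in 3 of 8 H4 promoters. The last 120 bases before the start are printed for Hist1h1b and for the 2 genes whose levels differed most between the parent strains in opposite directions, with CCAAT (or its reverse complement ATTGG) and TATAAA in capitals, from RefSeq on GRCm38.p6.
Hist1h1b (chr13:21780626-21780745, minus strand): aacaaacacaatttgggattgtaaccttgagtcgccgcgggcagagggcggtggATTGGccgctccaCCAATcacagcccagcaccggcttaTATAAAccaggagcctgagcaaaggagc
Hist1h4i (chr13:22041363-22041482, minus strand): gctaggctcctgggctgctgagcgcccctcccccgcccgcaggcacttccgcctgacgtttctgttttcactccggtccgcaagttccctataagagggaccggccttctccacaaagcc
Hist2h2ac (chr3:96220881-96221000, minus strand): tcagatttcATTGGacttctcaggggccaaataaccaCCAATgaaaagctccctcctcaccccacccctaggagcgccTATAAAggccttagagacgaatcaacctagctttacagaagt
These are reference letters, not the letters of NZB or NZW.

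Near-identical copies limit what single genes can say. In 22 of 54 members, more than 50% of the 50-base words in the last 300 bases of the transcript also occurred in another histone gene, and 33 shared at least 1 such word. All words were shared for Hist1h2ap and Hist1h1e, the latter overlapped by the Hist1h2be model on the same strand, so reads of these genes could be split, dropped or exchanged in counting. Hist1h1b, Hist1h1c, Hist1h4i, Hist1h3d, Hist1h4d and Hist1h1d shared none, Hist1h2ae shared 21.9% and Hist2h2ac 19.1%. The models of Hist1h1c, Hist1h4i, Hist1h3d, Hist1h4d and Hist1h1d run past the stem-loop, by 330 (Hist1h4i) to 4884 bases (Hist1h1d). Their 300 bases compared thus lie past the stem-loop, and their coding sequence was not compared. Of the other genes named in the strain comparison, Hist1h3f shared 100%, Hist1h2bj 67.7%, Hist1h2bb 60.2%, Hist1h2bm 42.2% and Hist1h3c 35.5%.

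After filtering, 39051 of 68444 barcodes remained, with 2455 to 5684 per mouse and 8106539 to 18663189 UMIs per mouse. The members held 139546 UMIs. Levels are given as CPM, a gene's UMIs per 1000000 UMIs of the same cells. Histone CPM over all cells were 1020, 981 and 768 for NZB, 1485, 1352 and 1296 for NZW, and 602, 1161 and 976 for NZBWF1. The NZW mice lay above all others. NZBWF1 replicate 1 stood lowest, and it also had the smallest share of dividing cells (26.9%, against 31.1% to 54.4% in the other 8). Barcodes under 100 UMIs, taken as free RNA, carried histone UMIs at 451 to 1415 CPM but only 1.54 to 2.78 UMIs of any gene on average. The barcode sequences of 342 kept cells occurred in more than 1 library.

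A few genes took most of the counts. Hist1h2ap, an H2A gene, had 51206 UMIs (36.7% of the members' UMIs) and Hist1h1b, a linker histone gene, had 40019 (28.7%), so that together they made up 65.4%. Hist1h1e and Hist1h1c, both linker histone genes, had 10454 and 6090 UMIs, and the H2A gene Hist1h2ae had 4807, which brought the first 5 to 80.7%. By family, the 5 H1 genes held 43.8% of the UMIs, the 13 H2A genes 42.9%, the 9 H4 genes 5.44%, the 16 H2B genes 5.34% and the 11 H3 genes 2.57%. The core histones are incorporated into the nucleosome in equal numbers, and the counts were not near equal among them.

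Cell classes were set by marker genes and cell cycle states by S and G2M genes that include no histone. A cell was called dividing if it had at least 4 UMIs of these lists after thinning to 1000 UMIs, and not dividing with at most 1. The 16469 dividing cells (42.2% of cells) held 61.1% of all UMIs and 93.3% of the histone UMIs, with 1689 CPM, while the 19548 cells not dividing held 4.18% of the histone UMIs, with 144 CPM. Median depths were 3781 and 1815 UMIs per cell. For 30 of 54 members (55.6%) over 90% of the UMIs came from dividing cells, as they did for 4.29% of the 12935 genes. The median member had 91.7% of its UMIs there, against 63.1% for the median gene.

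The members differed widely in this share. It reached 98.4% for Hist1h2an, and was 97.7% for Hist1h1b, 97.0% for Hist1h2ap and 90.6% for Hist1h1e. For 11 members it was under 80%, and 2 of these were H3 genes of chromosome 3, Hist2h3c2 (37.3% of 67 UMIs) and Hist2h3c1 (60.2% of 241). Hist3h2a (49.6%) and Hist1h2bc (51.1%) stood below the share of all UMIs, Hist1h1c had 69.8%, Hist2h4 71.0% and Hist1h2be 74.8%.

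In dividing cells, the mean over mice of all members together was above 1000 CPM in each class with at least 6 mice. It was highest in B lineage cells, 2605 ± 546 CPM (SD, n = 9), followed by plasmacytoid dendritic cells with 2102 ± 1143 (n = 8), monocyte lineage cells with 1749 ± 413 (n = 9), neutrophil lineage cells with 1732 ± 477 (n = 9), macrophages with 1681 ± 484 (n = 8) and NK cells with 1549 ± 463 (n = 8). Erythroid cells had 1333 ± 408, granulocyte-monocyte precursors 1111 ± 269 and stem and early progenitor cells 1024 ± 407 (n = 9 each). Neighbours in this order differed by less than their SDs. In 6 classes all 9 mice had enough dividing cells, and NZBWF1 replicate 1 was the lowest mouse in 5 of these 6.

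In cells not dividing the same sum was 243 ± 62.6 CPM in B lineage cells (n = 9), 234 ± 154 in macrophages (n = 8), 166 ± 56.5 in stem and early progenitor cells (n = 7), 134 ± 22.4 in monocyte lineage cells, 120 ± 50.5 in T cells, 112 ± 39.8 in NK cells, 105 ± 37.5 in plasmacytoid dendritic cells, 103 ± 9.89 in neutrophil lineage cells (n = 9 each) and 110 ± 40.2 in plasma cells (n = 8). The mean of granulocyte-monocyte precursors, from fewer mice, was higher than all of these and is given under Other observations. On average 9.10% of T cells and 5.12% of plasma cells were dividing. In the B lineage the lowest dividing sum was 1550 CPM and the highest sum not dividing was 309 CPM, and in the neutrophil lineage these were 890 and 121 CPM. Of the 9 plotted classes with both states, only granulocyte-monocyte precursors had mice that overlapped between them (lowest dividing 607 CPM, highest not dividing 622 CPM). A summed level cannot tell more cells with histone RNA from more RNA in each.

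**Figure D1:**
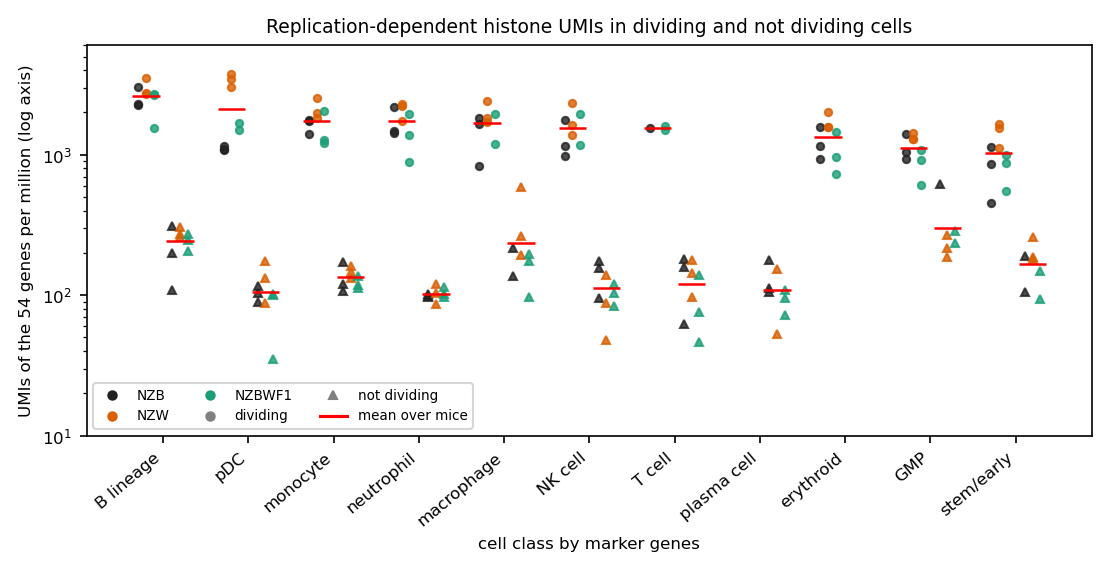
Levels of the 54 histone genes summed (CPM, log axis) in each cell class, 1 point per mouse, with circles for dividing cells, triangles for cells not dividing, colours for strains and bars for the mean over mice. Dividing B lineage cells averaged 2605 CPM and those not dividing 243 CPM, and the points of the 2 states are apart in B, monocyte and neutrophil lineage cells while they meet in granulocyte-monocyte precursors (607 and 622 CPM).

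Dividing cells were compared with cells not dividing of the same class and mouse in 7 classes (edgeR quasi-likelihood test with mouse as a block, Benjamini-Hochberg adjusted p under 0.05). All 9 mice had enough cells of both states in the B, monocyte and neutrophil lineages, 8 in NK cells and plasmacytoid dendritic cells and 7 in macrophages and stem and early progenitor cells. The test's filter on low counts let 10 of 54 members through in 30 gene-by-class tests. Levels were higher in dividing cells in 28 of these and lower in 1. Over all genes tested, 30.2% of tests were called higher and 30.5% lower, and the median log2 difference of the members' tests was 3.87. The members that passed were partly selected by their high level in dividing cells, so this count describes those genes and not all 54. With at most 5% mitochondrial UMIs per cell 15 tests were called, and Hist1h1c in the B lineage stood at -0.020. Fewer tests could be made at that limit, where 49 of the 84 named tests of all comparisons had a repeat.

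Among the linker histones the size of the difference ran over a wide range. Hist1h1b was higher in all 6 classes tested, with log2 differences of 4.34 to 6.73, for example 830 ± 236 against 8.96 ± 6.64 CPM in the B lineage (n = 9; log2 difference 6.18, SE 0.13, edgeR adjusted p = 2.34e-38). Hist1h1e was higher in 4 of 4 classes by 2.28 to 3.51 and Hist1h1d in 2 of 2 by 3.25 and 4.46. Hist1h1a was tested in the B lineage only and was higher there by 4.23 (SE 0.23). Hist1h1c stood apart with differences of 0.88 in the B lineage, 0.69 in the monocyte lineage and 0.68 in the neutrophil lineage (edgeR adjusted p = 2.52e-08, 7.06e-05 and 2.42e-08). Its levels in cells not dividing, 49.5 ± 8.79 CPM in the B lineage and 32.6 ± 9.38 in the neutrophil lineage (n = 9), compare with 94.2 ± 30.3 and 59.5 ± 18.8 CPM in dividing cells. In the neutrophil lineage Hist1h1b had 405 ± 121 CPM in dividing cells and 4.07 ± 1.97 in cells not dividing.

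Among the core histones, Hist1h2ap was higher in all 7 classes, with log2 differences of 4.71 in stem and early progenitor cells to 7.73 in NK cells. In the B lineage it had 905 ± 253 CPM in dividing cells, with a lowest, median and highest mouse of 506, 985 and 1207, and 10.7 ± 5.98 CPM in cells not dividing. The NK cell value rested on 387 UMIs against 1, a ratio of 442 with an exact counting interval of 78.9 to 17507, and for Hist1h1b on 281 against 3, a ratio of 107 (36.2 to 522). Counting intervals are at the 95% level and cover counting error only. Hist1h4i was higher by 2.44 (SE 0.16) in the B lineage and 1.97 (SE 0.20) in the neutrophil lineage, and Hist1h4d by 3.33 (SE 0.21) in the neutrophil lineage.

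The 2 most counted H2B genes differed little. Hist1h2be was higher by 0.96 in the B lineage and 0.66 in the neutrophil lineage. Hist1h2bc was lower in dividing neutrophil lineage cells, with 6.10 ± 4.12 against 9.72 ± 2.27 CPM (n = 9; log2 difference -0.80, SE 0.24, edgeR adjusted p = 0.0039), and in the B lineage it had 17.9 ± 6.66 against 19.1 ± 10.4 CPM (log2 difference -0.22, edgeR adjusted p = 0.30). Hist1h2bc is 1 of the members without the stem-loop letters in its longest transcript, which has 2 exons.

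Variant histones and the genes that handle histone mRNA and histone protein were read beside the members. Of the 11 variant genes 10 were tested, in 59 tests, of which 47 were higher in dividing cells and 3 lower. For this list and the next, the share over all genes tested was 30.2% higher and 30.5% lower. The low-count filter applied here as well, so the counts describe the genes tested. H2afz, a variant of H2A, had 4380 ± 248 CPM in dividing and 498 ± 81.0 CPM in other B lineage cells (n = 9), and H3f3a, which encodes the replacement histone H3.3, had 4806 ± 729 and 4750 ± 666 CPM. H2afx was higher in 7 of 7 classes (log2 2.93 to 5.71) and Cenpa, the centromere histone, in 6 of 6 (3.19 to 5.29). Of the 17 mRNA and chaperone genes 16 were tested, in 58 tests, of which 48 were higher and 3 lower. The stem-loop binding protein gene Slbp was higher in 7 of 7 classes (1.17 to 2.36) and the chaperone gene Asf1b in 4 of 4 (5.13 to 6.16).

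Within dividing cells, those with at least 2/3 of their cell cycle UMIs from the S list (S-rich) were set against those with at most 1/3 (G2M-rich). Of 32 tests of 10 members in 5 classes, 19 were lower in S-rich cells and 0 higher (edgeR quasi-likelihood with mouse as a block), against 13.5% lower and 14.6% higher over all genes tested. The test's filter on low counts let only these 10 members through. A member may have passed by its level in either group alone. The counts thus describe the members tested and not all members. DESeq2 called 16 lower and 0 higher, and at an unadjusted edgeR p under 0.05 there were 20 tests. With at most 5% mitochondrial UMIs 4 tests were called, and without the mouse as a block 9. Fewer tests could be made at the 5% limit, where 49 of the 84 named tests of all comparisons had a repeat. The lists are sets of genes whose mRNA peaks in those phases, so a cell's group is not a measure of its DNA content.

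Hist1h1e was lower in S-rich cells in 5 of 5 classes, with log2 differences of -0.37 to -1.201, Hist1h2ap in 4 of 5 with -0.23 to -1.16, and Hist1h1b in 3 of 5 with -0.38 to -0.86. The B lineage showed this most widely. There Hist1h2ap had 441 ± 143 CPM in S-rich and 1041 ± 305 in G2M-rich cells (n = 9; log2 difference -1.16, SE 0.07, edgeR adjusted p = 4.14e-60), and Hist1h1c, Hist1h2be, Hist1h2ae, Hist1h4d, Hist1h1d and Hist1h1a were lower with log2 differences of -1.38, -1.16, -1.15, -0.98, -0.64 and -0.38. In the neutrophil lineage Hist1h1b had 426 ± 231 and 328 ± 100 CPM (log2 difference 0.38, edgeR adjusted p = 0.106), and in erythroid cells 444 ± 153 and 437 ± 106 CPM (0.07, edgeR adjusted p = 0.554).

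Hist1h4i, an H4 gene, was not called in the 3 classes where it was tested, with log2 differences of 0.22 in the B lineage, 0.19 in erythroid cells and -0.05 in granulocyte-monocyte precursors (edgeR adjusted p = 0.17, 0.532 and 0.863). Its levels in S-rich and G2M-rich B lineage cells were 58.2 ± 50.6 and 52.2 ± 43.9 CPM, with an SD that holds the strain difference described below.

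Dividing cells between the limits of the S-rich and G2M-rich groups (mixed) had the highest mean in 4 of 5 classes. For all members, the means of S-rich, mixed and G2M-rich cells were 1387, 3167 and 2974 CPM in the B lineage (SD 405, 717 and 670, n = 9), 917, 2660 and 1725 in the monocyte lineage (SD 429, 649 and 403), 812, 1488 and 1114 in granulocyte-monocyte precursors (SD 203, 409 and 298) and 1518, 2786 and 1519 in the neutrophil lineage (SD 542, 760 and 433). In the B lineage mixed and G2M-rich cells differed by less than their SDs, and in NZBWF1 their order was the other way (2582 and 2786 CPM). In erythroid cells the means were 1263, 1377 and 1399 CPM and differed by less than their SDs of 409, 432 and 330. Mixed cells were not part of the test.

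**Figure D2:**
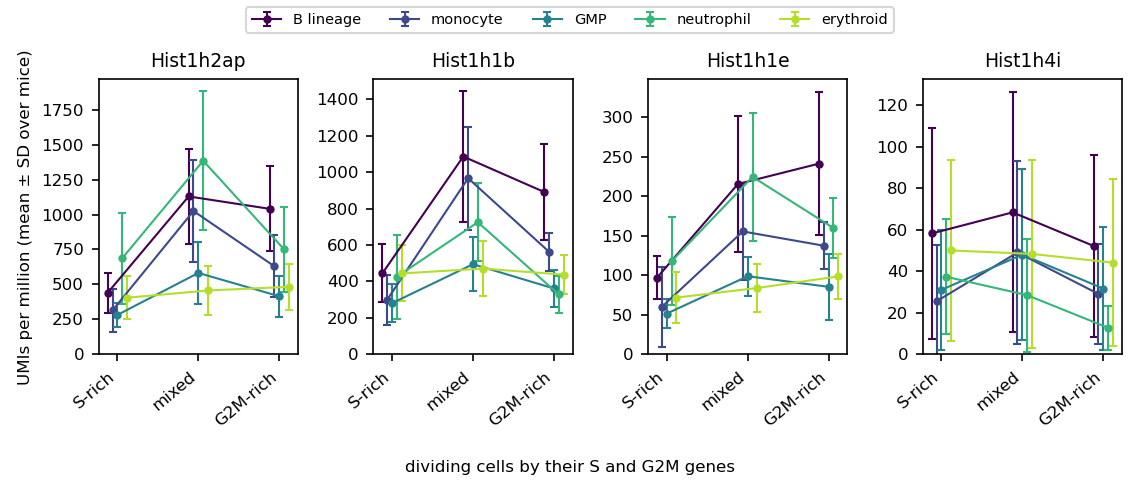
Levels of 4 histone genes in S-rich, mixed and G2M-rich dividing cells (CPM, mean and SD over 8 or 9 mice, 1 line per cell class). Hist1h2ap in the B lineage was 441 CPM in S-rich and 1041 CPM in G2M-rich cells. The erythroid line of Hist1h1b has S-rich and G2M-rich means close together, and Hist1h4i has SDs near its means.

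Of 61 tests of 16 mRNA and chaperone genes, 32 (of 10 genes) were higher in S-rich cells and 0 lower, with 35 at an unadjusted edgeR p under 0.05, and the others did not pass. For these genes and the variant histones below, the share over all genes tested was 14.6% higher and 13.5% lower. The low-count filter applied to both lists, so their counts describe the genes tested. In erythroid cells 4 of 16 were called, with a median log2 difference of 0.06. The chaperone genes Nasp (log2 0.42 to 1.77) and Chaf1a (0.42 to 1.65) and the binding protein gene Slbp (0.53 to 1.502) were higher in 5 of 5 classes, and Casp8ap2, which takes part in histone gene transcription, in 4 of 5 (0.79 to 1.60). Of 46 tests of variant histones, 5 were higher and 32 lower, with H2afx at log2 differences of -1.33 to -2.59 and Cenpa at -0.48 to -3.74 in 5 of 5 classes. Cenpa is known to be expressed late in the cycle.

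The parent strains were compared in 12 classes, with the 3 strains in 1 fit per class. Each fit held 9 mice, except that of plasma cells with 8, since NZW replicate 1 had under 10 of them. Of 127 tests of 33 members, 35 were lower and 8 higher in NZB than in NZW (edgeR quasi-likelihood, adjusted p under 0.05), against 4.52% lower and 4.53% higher over all genes tested. The low-count filter needed enough counts in only as many mice as 1 strain had. A member almost absent in NZB could therefore pass through the other strains. The counts of these and the following strain tests describe the members tested and not all 54. The calls came from 6 classes. Lower in NZB were 11 of 25 members tested in erythroid cells (4.71% of all genes tested there), 7 of 14 in granulocyte-monocyte precursors (6.37%), 7 of 18 in the neutrophil lineage (6.85%), 4 of 6 in plasmacytoid dendritic cells (3.66%), 3 of 17 in the monocyte lineage (10.1%) and 3 of 33 in the B lineage (1.17%). Of the 8 higher calls 3 were in the monocyte lineage, as many as were lower there.

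Since the share of dividing cells differed between strains in some classes (in the monocyte lineage 57.9%, 33.3% and 30.7% on average in NZB, NZW and NZBWF1), the comparison was repeated within dividing cells of 9 classes, with 8 mice in macrophages, NK cells and plasmacytoid dendritic cells (NZBWF1 replicate 1 had too few) and 9 in the others. There 40 of 107 tests were lower and 5 higher in NZB, against 3.94% and 3.78% over all genes tested. With at most 5% mitochondrial UMIs 23 of 54 tests in 5 classes were lower and 2 higher. A further count took all dividing cells together, including 1260 with markers of a second class and 628 with markers of none. There the levels of the 3 NZB mice all lay below those of the 3 NZW mice for 28 of 54 members (51.9%), against 22.1% of 12935 genes. They all lay above for 1 member (1.85%), against 14.9% of genes, and 25 members overlapped. Of the 28, 24 were on chromosome 13, 3 on chromosome 3 and 1 on chromosome 6. They were spread through the chromosome 13 cluster among genes whose mice overlapped.

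The mix of classes among these dividing cells differed between the strains. B lineage cells, with the highest histone sum, were 8.16% of the dividing cells that had a class in NZB, 27.3% in NZW and 32.9% in NZBWF1, and granulocyte-monocyte precursors were 24.5% in NZB and 15.0% in NZW. When each of the 6 classes with enough dividing cells in all 9 mice was given the same weight, a choice made after the data were seen, 18 members lay lower in every NZB mouse (12.0% of all genes) and 3 higher (11.7%), and all 18 were among the 28. In the 5 classes with at least 50 dividing cells in every mouse these counts were 19 (15.6%) and 2 (12.8%). The tests within classes do not depend on this mix of classes. The mix of maturation stages within a class was not compared between strains.

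**Figure D3:**
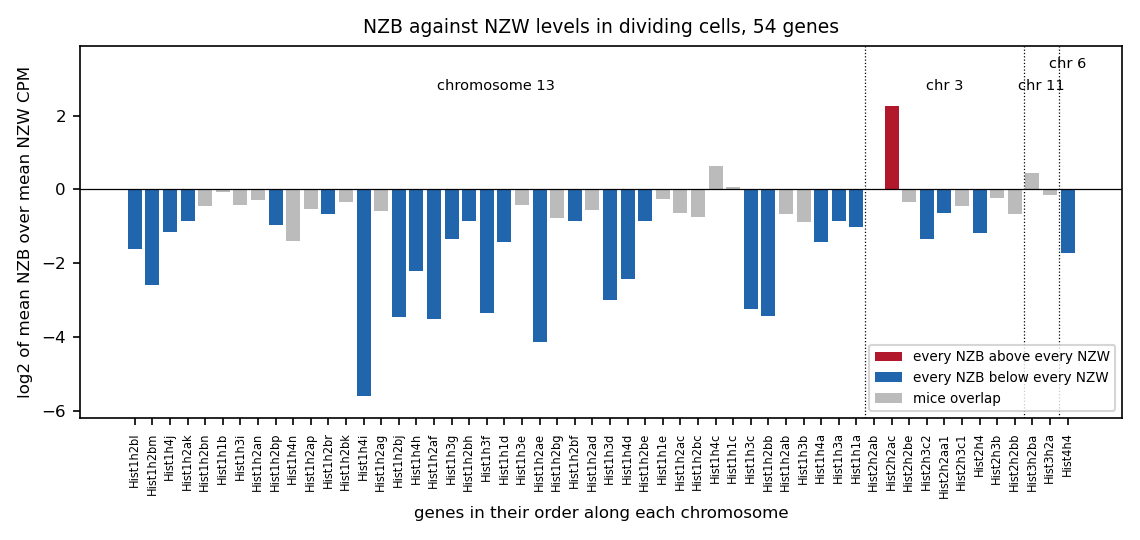
Log2 ratio of mean NZB to mean NZW level in dividing cells for each of the 54 genes in chromosome order, blue where every NZB mouse was below every NZW mouse, red where every one was above and grey where mice overlapped. Hist1h4i is the lowest bar (-5.61), Hist2h2ac the highest (2.25), and low bars stand beside bars near 0.

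Hist1h4i showed the largest difference. Its level over all dividing cells, with or without a class, was 2.76, 1.18 and 1.16 CPM in NZB, whereas the NZW mice had 83.9, 82.5 and 82.4, and the NZBWF1 mice 36.9, 39.95 and 41.0. The 3 strains did not overlap, and the mice of NZW differed by less than 2 CPM. By class the gene was lower in NZB in all 6 classes tested, with log2 differences of -6.54 in erythroid cells (SE 0.27, edgeR adjusted p = 2.08e-14), -5.49 in granulocyte-monocyte precursors, -5.18 in the B lineage, -5.13 in plasmacytoid dendritic cells, -4.73 in the monocyte lineage and -3.998 in the neutrophil lineage. That SE was derived from the test's F statistic. With NZB near 0 it is not a measure of counting error. In the B lineage the value rested on 3 UMIs in NZB against 673 in NZW, a ratio of CPM of 38.1 (12.98 to 185), and in plasmacytoid dendritic cells on 1 against 20, a ratio of 55.0 (8.81 to 2282). The last 300 bases of the Hist1h4i model shared no 50-base word with another histone gene. They lie past its stem-loop, and its coding sequence was not compared.

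Hist1h2ae had 8.93, 7.61 and 3.64 CPM in NZB, 164, 108 and 85.5 in NZW and 29.6, 58.5 and 40.3 in NZBWF1 dividing cells. The strains again did not overlap. It was lower in NZB in 5 of 6 classes with log2 differences of -3.64 to -4.98, and in the B lineage the difference was -3.42 (SE 0.77, edgeR adjusted p = 0.0892). Hist1h2bj, an H2B gene, had 1.06, 0.634 and 1.75 CPM in NZB and 15.5, 12.8 and 9.51 in NZW. Of its end sequence 67.7% also occurred in another histone gene. In the B lineage there were 0 UMIs in NZB against 101 in NZW, so that its level there was at least 5.72-fold lower with 3 UMIs taken as the limit of a count of 0 over the group.

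The H3 gene Hist1h3d was lower in NZB in 4 of 5 classes with log2 differences of -1.94 to -4.59, with 2.55, 3.71 and 1.46 CPM in NZB, 19.7, 23.4 and 18.2 in NZW and 15.0, 14.0 and 12.8 in NZBWF1 dividing cells. In the B lineage its value came from 3 UMIs against 193, a ratio of 10.9 (3.68 to 53.4). The H4 gene Hist1h4d was lower in 4 of 5 classes with -1.22 to -3.19, with 8.29, 7.52 and 4.66 CPM in NZB and 51.4, 26.8 and 31.8 in NZW. Among linker histones, Hist1h1d was lower in 3 of 5 classes with -1.02 to -1.38, with 16.4, 10.1 and 12.7 CPM in NZB against 38.8, 32.7 and 34.5 in NZW.

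Hist2h2ac, an H2A gene on chromosome 3, went the other way. Its level in dividing cells was 18.5, 17.03 and 14.6 CPM in NZB, 4.59, 3.06 and 2.90 in NZW and 4.85, 9.15 and 11.5 in NZBWF1. It was higher in NZB in all 5 classes tested, by 2.13 to 2.97 on the log2 scale. Of the other members, Hist1h1c was called higher in NZB in the neutrophil lineage (0.93, SE 0.15) and the monocyte lineage (0.71, SE 0.17).

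The 2 genes with the most UMIs overlapped between the parents. Hist1h2ap in dividing cells had 790, 501 and 299 CPM in NZB and 779, 705 and 822 in NZW, and it passed in none of 11 whole classes (log2 differences of -2.07 to 0.12), with 1 of them, plasmacytoid dendritic cells, at an unadjusted edgeR p under 0.05. Within dividing cells Hist1h2ap was lower in NZB in 1 of 9 classes, plasmacytoid dendritic cells (-1.55, SE 0.37, edgeR adjusted p = 0.0456). All 4 members tested there were lower, against 3.94% of all genes tested over the dividing cells of the 9 classes. Hist1h1b had 565, 526 and 530 CPM in NZB and 779, 468 and 452 in NZW, and was called higher in NZB in the monocyte lineage (0.56, SE 0.17, edgeR adjusted p = 0.0293) and lower in plasmacytoid dendritic cells (-1.51, SE 0.25, edgeR adjusted p = 2.42e-05), where Hist1h1e was lower as well (-1.54). Within dividing cells the monocyte lineage value of Hist1h1b was 0.06 (SE 0.15, edgeR adjusted p = 0.85) and that in plasmacytoid dendritic cells -1.003 (SE 0.25, edgeR adjusted p = 0.00623). In dividing erythroid cells the H1 sum averaged 711 CPM in NZB and 752 in NZW, while the H4 sum averaged 11.5 and 162 and the H3 sum 14.6 and 58.7. Much of the H4 sum in NZW came from Hist1h4i and Hist1h4d. Over the whole erythroid class Hist1h4i averaged 1.10 CPM in NZB and 98.2 in NZW, and Hist1h4d 2.99 and 31.2. The H2A and H2B sums and other classes are not given here.

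**Figure D4:**
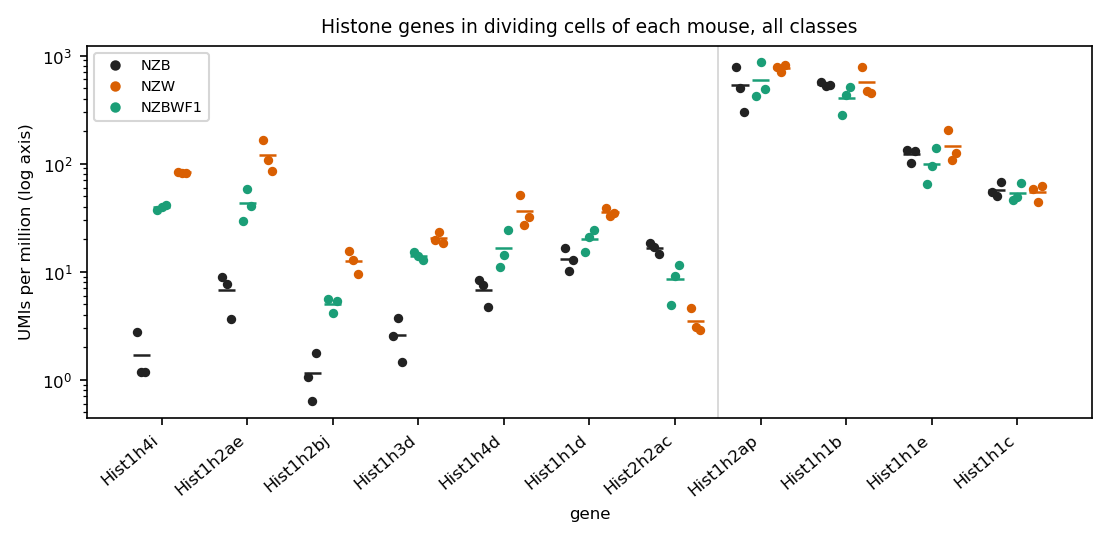
Levels of 11 histone genes over all dividing cells, with or without a class (CPM, log axis), 1 point per mouse and a line at each strain's mean. Left of the grey line are genes with 3 or more classes called between NZB and NZW, such as Hist1h4i with at most 2.76 CPM in NZB and at least 82.4 CPM in NZW, and right of it are 4 of the most counted genes, whose NZB and NZW points overlap.

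The members' difference between dividing and other cells was not shown to differ between NZB and NZW. The interaction of state and strain called 0 of 30 tests in 7 classes by edgeR and 0 by DESeq2, with 2 of 30 at an unadjusted edgeR p under 0.05, against 1.18% of all tests called. Of 124 tests of mRNA and chaperone genes 10 were higher and 1 lower in NZB (4.53% and 4.52% over all genes tested), with 7 of the 10 in the monocyte lineage. Within dividing cells 1 of 100 was higher and 1 lower (3.78% and 3.94% over all genes tested), with 0 of 16 called in the monocyte lineage and 3 of 16 at an unadjusted edgeR p under 0.05. Of 108 tests of variant histones in whole classes 8 were higher and 8 lower, against the same 4.53% and 4.52%, with H1f0, a linker variant of cells that have stopped dividing, lower in 3 classes (log2 -0.74 to -2.05).

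For the cross, each comparison shares its parents' samples with the one above. Against NZB, 10 of 127 tests were higher in NZBWF1 and 4 lower (1.85% and 1.89% over all genes), and against NZW, 0 were higher and 16 lower (0.575% and 0.436%), or 0 and 11 by DESeq2, with 59 at an unadjusted edgeR p under 0.05. With at most 5% mitochondrial UMIs 0 of 80 tests were higher and 7 lower against NZW. Over all dividing cells, with or without a class, every NZBWF1 mouse lay between every mouse of either parent for 10 of 54 members (18.5%), against 3.73% of 12935 genes. The members were Hist1h4i, Hist1h2ae, Hist1h2bj, Hist1h2bm, Hist1h2bb, Hist1h3c, Hist1h3d, Hist1h3f, Hist1h4d and Hist2h2ac. With the 6 classes given the same weight, 9 of these 10 remained, without Hist1h4d, against 2.46% of genes, and with the 5 classes it was 10 members against 3.36%, of which 9 were the same.

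With the average of both parents' log levels as the reference, 5 tests were higher and 1 lower in NZBWF1, against 0.356% and 0.124% of all tests. All 5 were Hist1h4i, by 2.07 in erythroid cells (SE 0.23, edgeR adjusted p = 5.55e-06), 1.72 in granulocyte-monocyte precursors (SE 0.23, 1.44e-06 by edgeR), 1.57 in the B lineage, 1.32 in the neutrophil lineage and 1.30 in the monocyte lineage. In plasmacytoid dendritic cells its value was 0.84 (SE 0.70, edgeR adjusted p = 0.954). The mean of logs lies far below the arithmetic mean where a parent is near 0. On the linear scale NZBWF1 stood at 43.3% to 62.0% of NZW in these 5 classes and at 85.7% to 117% of the arithmetic mean of the parents. In plasmacytoid dendritic cells, on few UMIs, it stood at 23.97% and 47.2%. The call in the B lineage was lost without any NZB mouse or without NZBWF1 replicate 2 or 3 (log2 1.45 to 1.64), that in the monocyte lineage without NZB replicate 2 or 3 or any NZBWF1 mouse (1.06 to 1.47), and that in the neutrophil lineage without NZB replicate 2 or 3, NZBWF1 replicate 2 or 3 or any NZW mouse (1.09 to 1.44), while the erythroid and granulocyte-monocyte precursor calls stayed in all 9 cases. Within dividing cells Hist1h4i passed in 4 of these 5 classes, and in the neutrophil lineage it was 1.10 higher (SE 0.31, edgeR adjusted p = 0.108).

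The test called lower was Hist1h1b in the monocyte lineage (log2 -0.88, SE 0.15, edgeR adjusted p = 0.0118). Of the other 10 classes none passed, with log2 differences from -1.18 in macrophages to 0.04 in NK cells. The call was lost without any 1 of the NZBWF1 mice, and within dividing cells, where the value was -0.50 (SE 0.13, edgeR adjusted p = 0.178). The share of dividing cells in this class was 30.7% in NZBWF1, 57.9% in NZB and 33.3% in NZW. Over all dividing cells NZBWF1 replicates 1, 2 and 3 had 282, 427 and 514 CPM of Hist1h1b. Replicates 1 and 2 lay below every parent mouse, of which the lowest had 452 CPM.

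The 2 most counted genes did not move together from library to library. The ratio of Hist1h2ap to Hist1h1b UMIs in dividing cells was lowest in NZB replicate 3 in 5 of 5 classes, between 0.440 in the monocyte lineage and 0.920 in the neutrophil lineage, and highest in NZBWF1 replicate 2 in 4 of 5, between 1.68 and 3.40. In granulocyte-monocyte precursors NZW replicate 3 was highest with 1.72. The neutrophil lineage had a mean ratio of 2.23 ± 0.879 and the other 4 classes 1.02 to 1.198 (n = 9). Within each strain the 3 libraries kept the same order in all 5 classes. What sets this ratio was not tested.

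**Figure D5:**
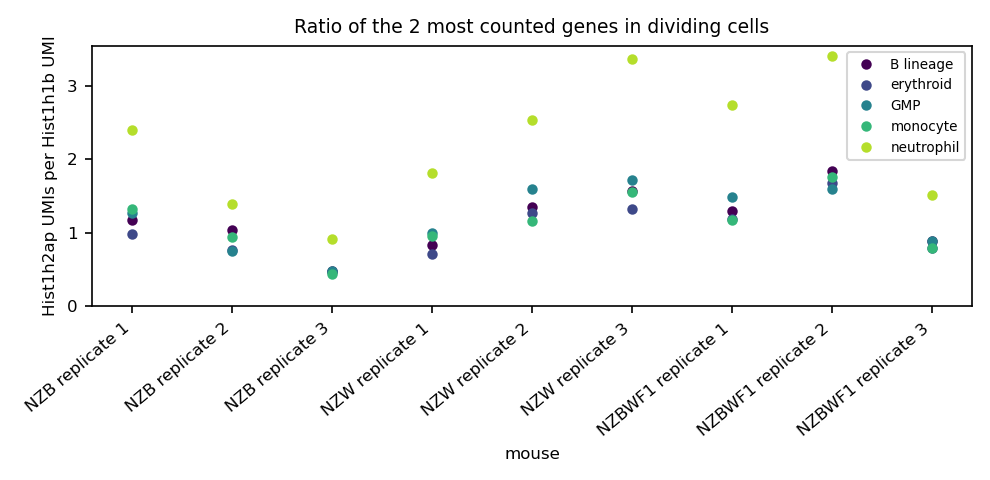
Hist1h2ap UMIs per Hist1h1b UMI in dividing cells of each mouse, 1 point per cell class. The 4 classes other than the neutrophil lineage ranged from 0.440 to 0.476 in NZB replicate 3, from 1.15 to 1.59 in NZW replicate 2 and up to 1.85 in NZBWF1 replicate 2, and the neutrophil lineage lies above them in all 9 mice.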

How the data were processed

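Libraries of the 9 mice were made with 10x Genomics 3′ chemistry. Per the submitters' processing notes, the authors used bcl2fastq 2.20 and Cell Ranger 3.1.0 with the build mm10 and deposited UMI counts in a merged matrix. Whether merging evened out depth, and the annotation release, are not given in the sources used here. The number after each barcode was read as the line of the deposited aggregation list, which no source states. All strains were aligned to 1 reference, so sequence differences of NZB or NZW could change counts, and this was not tested.

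Barcodes with at least 1000 UMIs, 500 genes and at most 10% mitochondrial UMIs were kept (no other columns were used). Classes were the best of 14 marker scores (mean clipped z of at least 0.5, lead of at least 0.25). Barcodes with markers of a second class (2394, the treatment of doublets) or of none (1141) were left out of classes, and 1053 barcodes lay within 0.1 of the score limit. Levels over all cells or all dividing cells include the barcodes left out of classes. UMIs were summed per class and mouse, with at least 10 cells, and tested with edgeR 4.0.16 (quasi-likelihood, TMM, filterByExpr) in R 4.3.3, with Benjamini-Hochberg adjustment over all genes of a class. Scripts were tested on simulated data. Level values are mean ± SD over mice. Each SE of a log2 difference is its absolute value divided by the square root of the quasi-likelihood F statistic. It is not a standard error estimated for the coefficient itself. Alternatives included DESeq2 1.42.0, other filters and leaving out each mouse. Named genes were the 5 with most UMIs, those called in most classes by state, those called for the cross, and those called in at least 3 classes between NZB and NZW. The members, lists and rules were chosen with earlier results of these data known. The mice came from 1 supplier in 1 delivery.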

Additional observations from a re-analysis of the deposited data

Results flagged for a closer look

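The values of 1 gene lay in opposite directions in 2 cell classes. In a fit of each class, Hist1h1b was higher in NZB than in NZW in granulocyte-monocyte precursors by 0.56 on the log2 scale (0.5583), with 452, 456 and 456 CPM in the NZB mice and 379, 256 and 242 in the NZW mice, and lower in plasmacytoid dendritic cells by 1.51 (-1.5097), with 26.6, 52.0 and 46.3 CPM in NZB and 146, 91.9 and 139 in NZW. Every NZB mouse lay on 1 side of every NZW mouse in either class, in opposite directions, which is why the pair is listed. The difference between the classes was not tested, and the granulocyte-monocyte precursor value did not pass the test (edgeR adjusted p = 0.22), so that only the second is a call. The share of dividing cells was 88.7% in NZB and 72.8% in NZW on average in granulocyte-monocyte precursors, and 6.51% and 11.2% in plasmacytoid dendritic cells. In dividing cells alone the value of Hist1h1b was 0.37 (SE 0.23, edgeR adjusted p = 0.405) in granulocyte-monocyte precursors and -1.003 (SE 0.25, edgeR adjusted p = 0.00623) in plasmacytoid dendritic cells. The gene passed as higher in NZB in the monocyte lineage alone (0.56).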

How the results depend on the processing

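Of 84 named tests, 1657 repeats under other settings gave 1584 on the same side of the threshold and 72 below it. One reversed: Hist1h1c in the B lineage by state, -0.020 at 5% mitochondrial UMIs. Counts called were 29 (state), 19 (phase), 43 (NZB against NZW), 45 (the same in dividing cells), 6 (cross against the parents' logs), 14 (cross against NZB) and 16 (cross against NZW). With no filter on low counts they were 157, 45, 82, 73, 11, 29 and 33. At most 5% mitochondrial UMIs gave 15 for state, 4 for phase, 25 for NZB against NZW in dividing cells and 7 for the cross against NZW. At least 2000 UMIs and 1000 genes gave 10 for state and 2 for the cross against the parents' logs. Without each mouse in turn, the ranges were 20 to 30, 14 to 21, 42 to 62, 37 to 62, 3 to 5, 11 to 21 and 13 to 18, and the cross against the parents' logs gave 3 without NZB replicate 3, NZBWF1 replicate 2 or NZBWF1 replicate 3. A named test that could not be made in a setting is not among the repeats. At most 5% mitochondrial UMIs left 49 of the 84 named tests, with 40 the same, 8 below the threshold and 1 reversed. At least 2000 UMIs and 1000 genes left 62, with 55 the same, 7 below the threshold and 0 reversed. Lower counts called in these settings thus include tests that were not made. Beyond this, the cause of the changes in counts was not tested. Weighting cell classes equally gave 18 members lower in every NZB mouse, in place of 28. DESeq2 size factors and subtraction of free RNA changed no named call. The labels do not say that a replicate number marks a shared batch or day, and not every same-numbered pair's deviations correlated over 0.1 (6 of 9 pairs in the B and neutrophil lineages, 1 in erythroid cells, 0 in the monocyte lineage, from -0.0875 to 0.350), so the numbers were not taken as pairs. As a hint from the data, 6, 6, 5 and 2 of 9 mice correlated best with their own number in these 4 classes, and replicate 1 had the smallest and replicate 2 the largest share of dividing cells in all 3 strains. In the B and neutrophil lineages the same-numbered pairs not over 0.1 were all of replicate 3. Pairs of different numbers ranged from -0.296 to 0.176 in the B and -0.318 to 0.161 in the neutrophil lineage. They ranged from -0.106 to 0.098 in erythroid cells and -0.082 to 0.103 in the monocyte lineage. With the replicate block 49 tests were called for NZB against NZW, 45 in dividing cells, 6 for the cross against the parents' logs, 19 against NZB and 24 against NZW. Without the mouse as a block (no replicate block), phase gave 9 and state 29. The interaction gave 0 in all 20 alternatives.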

Other observations

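Megakaryocyte-marked cells, 89 in all, were too few for a test. In the 1 mouse with enough cells not dividing, NZB replicate 2, the members stood at 1031 CPM on 38 UMIs, with 489 CPM of Hist1h1c (18 UMIs) and 326 CPM of Hist1h2bc (12 UMIs) and 0 UMIs of Hist1h2ap and Hist1h1b. In NZBWF1 replicate 2, the 1 mouse with enough dividing cells, they stood at 1134 CPM on 75 UMIs, with 545 CPM of Hist1h2ap, 242 of Hist1h1b and 60.5 of Hist1h1c. These are single sums with no replicate.

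Dividing basophil or mast cells had 1872 ± 469 CPM of members and dividing T cells 1553 ± 51.8, each in 3 mice, and the 1 sum of dividing conventional dendritic cells had 1839 CPM. Granulocyte-monocyte precursors not dividing had 303 ± 160 CPM in 6 mice, from 187 to 622, the highest level in cells not dividing among classes with at least 6 mice. In that class 80.4% of cells on average were dividing.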
